A study of Mus musculus with 3 samples.

Results

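The 7 genes of renal glucose handling described here, fixed by name, were followed in single kidney cells: the sodium-coupled glucose carriers Slc5a1 and Slc5a2, the facilitative carriers Slc2a1 and Slc2a2, and the gluconeogenic enzymes Pck1, G6pc and Fbp1. These are 7 of 49943 genes with coordinates on the mouse chromosomes. The readout was open chromatin, measured by mtscATAC-seq, in which fixed and permeabilised cells keep their mitochondria while a transposase cuts accessible DNA. A gene's level here is the count of cuts in peaks that overlap its body or the 2 kb on either side, per 1000000 cuts in peaks (CPM), in all cells of a class summed within 1 library. It is not an amount of RNA or protein, and fewer open cells and less open chromatin per cell cannot be told apart in such a sum. The old group had 2 kidney libraries of trnE-mutant mice aged 75 weeks, replicate 1 with a mutation load of 75% and replicate 2 with a load of 80%. The young group was 1 library of a trnE-mutant kidney aged 3 weeks with a load of 80%. trnE is the mitochondrial gene for the glutamate tRNA, and the load is the share of mitochondrial genomes that carry the mutation. Every library carried it, so age was compared among mutant kidneys only. Neither sex nor strain is given in the sources used here. Whether the old libraries came from separate animals is not stated in the labels either, so the p-values reflect the spread of these libraries alone, which may be technical.

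The kidney recovers filtered glucose in the proximal tubule. SGLT2, the product of Slc5a2, takes up most of it in the early segments, and SGLT1, from Slc5a1, takes up the remainder further along. GLUT2, from Slc2a2, lets glucose leave the proximal tubule cell on the blood side, and GLUT1, from Slc2a1, serves basal glucose uptake in many cell types. The proximal tubule also makes glucose: phosphoenolpyruvate carboxykinase (Pck1), fructose-1,6-bisphosphatase (Fbp1) and glucose-6-phosphatase (G6pc) carry out the steps that glycolysis cannot run backwards.

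Promoter sequences, the 250 bases before the annotated start, were taken from RefSeq (build GRCm38.p6) for 6 of the 7 genes. Slc5a2 was not matched. The promoters of Pck1, G6pc, Slc2a2 and Slc2a1 are printed because the first 3 lie in regions open mainly in proximal tubule-like cells and the last in a region open in every class. Capitals mark GTTAAT, the core of the HNF1 motif, and CAAAG, the core of the HNF4 motif, on either strand; HNF1 and HNF4 are transcription factors of proximal tubule and liver.
Pck1, chr2:173152823-173153072, plus strand: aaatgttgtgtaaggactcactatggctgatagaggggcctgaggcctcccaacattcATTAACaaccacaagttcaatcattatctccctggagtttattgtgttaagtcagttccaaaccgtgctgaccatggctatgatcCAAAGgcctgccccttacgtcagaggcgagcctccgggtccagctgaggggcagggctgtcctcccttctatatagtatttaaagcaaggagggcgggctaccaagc
G6pc, chr11:101367466-101367715, plus strand: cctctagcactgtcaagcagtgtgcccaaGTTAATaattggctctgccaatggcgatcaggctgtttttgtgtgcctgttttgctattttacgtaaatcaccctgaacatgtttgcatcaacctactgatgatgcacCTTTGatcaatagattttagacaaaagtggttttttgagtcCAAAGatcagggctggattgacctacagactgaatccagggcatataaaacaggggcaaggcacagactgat
Slc2a2, chr3:28697653-28697902, plus strand: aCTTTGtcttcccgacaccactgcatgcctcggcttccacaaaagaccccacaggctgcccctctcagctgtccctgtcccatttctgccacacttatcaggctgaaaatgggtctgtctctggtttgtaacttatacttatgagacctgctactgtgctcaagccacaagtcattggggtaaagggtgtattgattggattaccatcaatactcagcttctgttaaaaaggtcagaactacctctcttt
Slc2a1, chr4:119108495-119108744, plus strand: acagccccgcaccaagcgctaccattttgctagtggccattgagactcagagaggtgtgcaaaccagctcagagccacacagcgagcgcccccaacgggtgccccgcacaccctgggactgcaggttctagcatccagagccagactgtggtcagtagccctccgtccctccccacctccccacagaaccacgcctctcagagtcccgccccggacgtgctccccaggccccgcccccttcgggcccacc
GTTAAT was found in 2 of the 6 promoters, at -192 from the start in Pck1 and at -221 in G6pc. It occurs in 6.4% of all 32851 promoters of this length. CAAAG was found in 3 of the 6, at -107 in Pck1, at -113 and -72 in G6pc and at -249 in Slc2a2, and in 48.6% of all promoters. TGACG, the core of the cyclic AMP response element, was found in Pck1 alone, at -90, and in 17.8% of all promoters. GGGCGG, the SP motif, was found in Slc2a1 at -45 and -20, in Pck1 at -16 and in Fbp1 at -84, and in 32.7% of all promoters. CACGTG, the E-box, was found in Slc5a1 at -143 and in 6.0% of all promoters. GATAA was found in Slc2a2, Pck1 and Fbp1 and in 22.6% of all promoters, and CCAAT in Slc2a2, G6pc and Fbp1 and in 33.8% of them. All motifs were searched on both strands, positions give the leftmost base, and no matches overlapped apart from CACGTG, which reads alike on both strands. A match is a run of letters and not a measured binding site.

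Old replicate 1 stood apart from the other libraries. It kept 5315 cells, of which 3277 were macrophage or dendritic-like and 1231 T or NK-like, and 197 were proximal tubule-like. Proximal tubule-like cells were 3109 of 3950 in old replicate 2 and 3263 of 3976 in the young library. The proximal tubule set of 16 markers, which holds none of the 7 genes, summed to 2097 and 2187 CPM in these cells in old replicates 1 and 2 and to 2255 CPM in the young library. The macrophage or dendritic set of 12 markers summed to 162.1 and 128.9 CPM in them in the old libraries, with 5 and 4 markers at 0, and to 130.3 CPM in young, with 4 at 0. These marker sums cover only regions with a peak in both old replicate 2 and young. Old replicate 2 held 4 macrophage or dendritic-like cells, so regions open mainly in such cells can be missing. The macrophage or dendritic sums therefore cannot show whether proximal tubule-like cells of old replicate 1 carry immune signal. The median count per proximal tubule-like cell was 17567 and 14306 in the old libraries and 28447 in the young one. Cell barcodes shared between libraries numbered 26 to 31 a pair. Old replicate 2 and young therefore gave the main comparison, with 1 library a side and no replicate check, and both old libraries entered the tests.

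Apart from Slc5a1 and Fbp1, the genes fell into 2 patterns across cell classes. Slc2a2, Pck1, G6pc and Slc5a2 were open in proximal tubule-like cells and at most 33.0 CPM in any other named class of at least 50 cells, while Slc2a1 was lower in proximal tubule-like cells than in the loop to collecting duct and in immune cells. Pck1 had 214.9 and 150.5 CPM in proximal tubule-like cells of old replicates 1 and 2 and 135.1 CPM in the young library. In loop to collecting duct-like cells, the joined distal nephron, it had 9.21 and 16.4 CPM in the old libraries and 12.9 CPM in the young one. G6pc had 58.5 and 67.6 CPM in old and 58.4 CPM in young proximal tubule-like cells, and from 0 to 6.86 CPM in the loop to collecting duct. Slc2a2 had 120.7 and 144.7 CPM in old and 182.9 CPM in young proximal tubule-like cells, against 15.4 to 29.6 CPM in the loop to collecting duct. For these 3 genes every proximal tubule-like value lay above every loop to collecting duct-like value.

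Slc5a2 had 35.5 CPM in old replicate 2 and 38.3 CPM in young proximal tubule-like cells, and 1.64 and 3.86 CPM in the loop to collecting duct of the same libraries. No peak was called over Slc5a2 in old replicate 1, so it was not measured there. Slc5a1 was the least confined of the tubule carriers: it had 63.0 and 48.1 CPM in old and 62.8 CPM in young proximal tubule-like cells, and 56.3 and 38.0 CPM in old and 41.2 CPM in young loop to collecting duct-like cells. Fbp1 had 97.3 and 97.9 CPM in old and 121.0 CPM in young proximal tubule-like cells. In loop to collecting duct-like cells it had 16.4 and 14.5 CPM in old and 9.43 CPM in young. Young T or NK-like cells had 62.6 CPM of Fbp1, its highest value in another named class of at least 50 cells. The clusters were formed from the same cells, so these class levels are descriptions and were not tested.

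**Figure D1:**
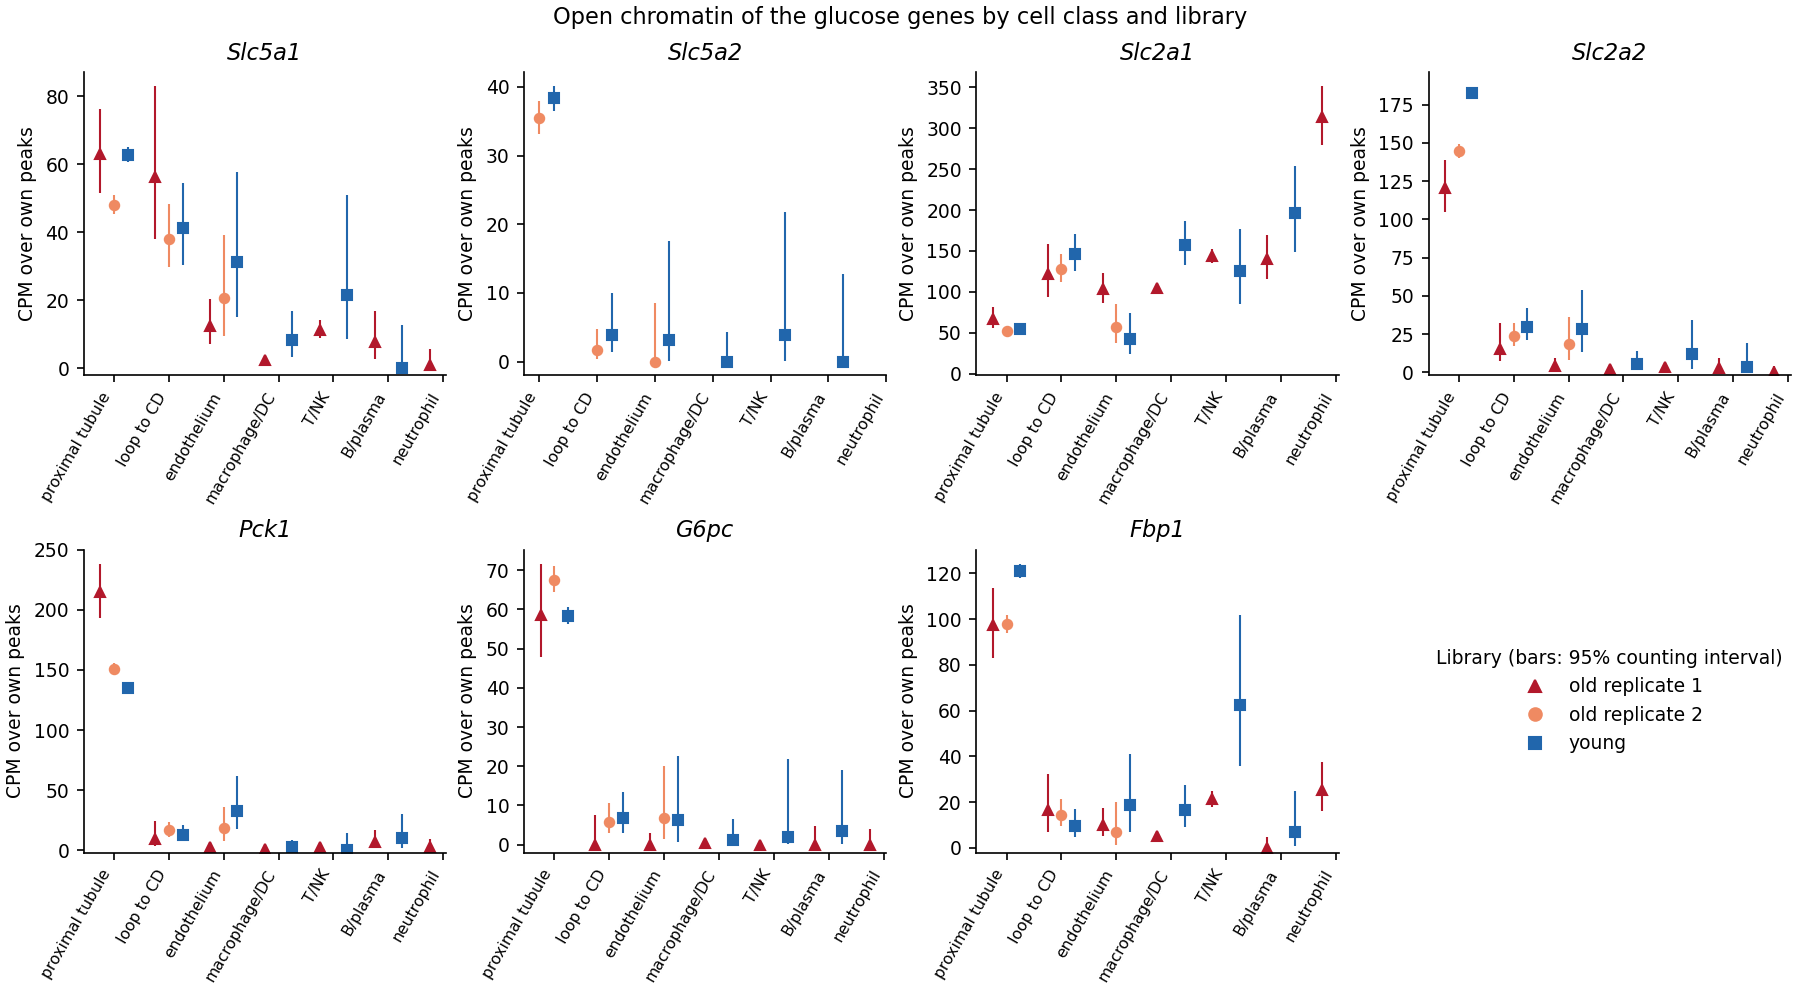
CPM over each library's own peaks (vertical axis) by cell class (horizontal axis) for each gene, with 1 point per library and class of at least 50 cells and bars for the exact 95% counting interval; CD is collecting duct and DC dendritic cell. Pck1, G6pc, Slc2a2, Slc5a2 and Fbp1 lie highest in proximal tubule-like cells among these classes (cluster 11, without a name, is not drawn). Slc2a1 reaches 313.8 CPM in neutrophil-like cells of old replicate 1.

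Per kb of covered peak, Pck1 was the most open of the genes in proximal tubule-like cells, with 82.8 and 55.2 CPM per kb in the old libraries and 71.9 CPM per kb in the young one. G6pc followed with 31.7 and 39.2 CPM per kb in old and 33.6 CPM per kb in young. Slc2a2 had 26.8 and 21.1 CPM per kb in old and 20.2 CPM per kb in young, and Fbp1 21.2 and 22.1 CPM per kb in old and 19.0 CPM per kb in young, ranges that overlapped. Slc5a2 had 16.9 CPM per kb in old replicate 2 and 18.8 CPM per kb in young. The lowest values were those of Slc2a1, at 7.51 and 9.88 CPM per kb in old and 7.54 CPM per kb in young, and of Slc5a1, at 8.78 and 5.14 CPM per kb in old and 8.32 CPM per kb in young. Their order differed between libraries.

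Slc2a1 and Fbp1 held regions that were open in immune-like cells and low or close to 0 in proximal tubule-like cells. Some of them were also open in endothelium-like cells. The Slc2a1 region 17.1 kb past the start (chr4:119125389-119126333, build mm10, within the gene) had 117.2 CPM in neutrophil-like, 26.2 CPM in macrophage or dendritic-like, 19.3 CPM in T or NK-like and 1.30 CPM in B or plasma-like cells of old replicate 1, against 1.80 CPM in its proximal tubule-like cells. In the young library it had 46.0 CPM in macrophage or dendritic-like, 3.44 CPM in B or plasma-like and 0.406 CPM in proximal tubule-like cells, and 1.96 CPM, from 1 count, in T or NK-like cells. The neighbouring region at 18.7 kb (chr4:119126948-119127868) was open in all 4 immune classes of old replicate 1, at 77.8 CPM in neutrophil-like, 55.7 CPM in T or NK-like, 41.0 CPM in B or plasma-like and 23.0 CPM in macrophage or dendritic-like cells, against 1.80 CPM in proximal tubule-like cells. In the young library it had 84.3 CPM in B or plasma-like and 62.6 CPM in T or NK-like cells, against 0.310 CPM in proximal tubule-like cells. Another region, 22.7 kb past the start (chr4:119130921-119131948), had 24.2 CPM in neutrophil-like, 16.9 CPM in B or plasma-like, 9.73 CPM in macrophage or dendritic-like and 0.486 CPM in T or NK-like cells of old replicate 1. In the young library it had 37.9 CPM in B or plasma-like, 20.05 CPM in macrophage or dendritic-like, 13.7 CPM in loop to collecting duct-like and 0 CPM in T or NK-like cells. Endothelium-like cells had 16.9 CPM at 17.1 kb and 14.1 CPM at 18.7 kb in old replicate 1, and 7.85 and 6.28 CPM in young. At 22.7 kb they had 0 CPM in both libraries. The start of Slc2a1 itself was open in every class.

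Within Fbp1 the region 8.0 kb past the start (chr13:62879762-62880847) had 24.2 CPM in neutrophil-like and 19.8 CPM in T or NK-like cells of old replicate 1, against 4.58 CPM in macrophage or dendritic-like, 0 CPM in B or plasma-like and 3.60 CPM in proximal tubule-like cells of that library. The T or NK-like cells of the young library had 58.7 CPM there, from 30 counts in 75 cells, and its proximal tubule-like cells 6.34 CPM. Young macrophage or dendritic-like cells had 13.6 CPM and young B or plasma-like cells 6.88 CPM. Endothelium-like cells had 9.41 CPM at the region in old replicate 1 and 6.28 CPM in young. The remaining regions of Fbp1 were low in immune-like cells, so most of the Fbp1 level of T or NK-like cells, 21.2 CPM in old replicate 1 and 62.6 CPM in young, lay in this region. Old replicate 2 held at most 4 cells of any immune class and no peak at these regions.

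**Figure D2:**
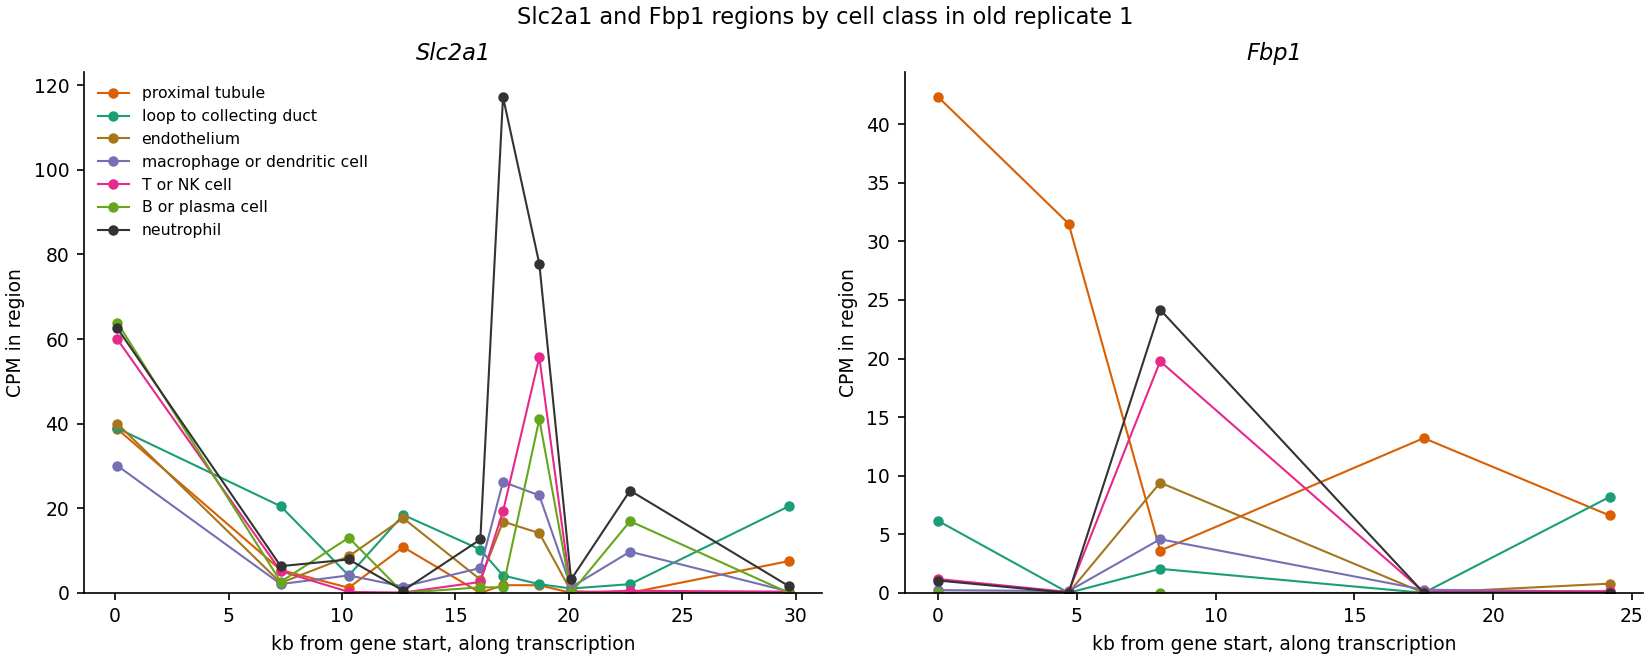
CPM in each region of Slc2a1 (left) and Fbp1 (right) in old replicate 1, by distance in kb from the gene start, with 1 line per cell class; lines join neighbouring regions to guide the eye. The Slc2a1 regions at 17.1 and 18.7 kb reach 117.2 and 77.8 CPM in neutrophil-like cells, and the Fbp1 region at 8.0 kb reaches 24.2 CPM there.

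The main comparison asked whether chromatin over these genes differed between old replicate 2 and the young kidney within proximal tubule-like cells. Slc5a1, Slc2a2 and Fbp1 were less open in old replicate 2 and Pck1 and G6pc more open, all by less than 1.5-fold. Slc5a1 had a log2 ratio of old replicate 2 over young of -0.38 (95% interval -0.48 to -0.28, counting error only). Slc2a2 had -0.34 (-0.40 to -0.28) and Fbp1 -0.31 (-0.38 to -0.24). G6pc had 0.21 (0.12 to 0.30) and Pck1 0.16 (0.10 to 0.22). The intervals of Slc5a2, at -0.11 (-0.23 to 0.01), and Slc2a1, at -0.07 (-0.17 to 0.03), included 0. With cluster 11, described further on, counted in, an alternative chosen after seeing the data, Slc5a2 was at -0.25 (-0.36 to -0.13), and with TMM scaling at -0.13 (-0.25 to -0.01). Over gene starts Slc2a1 was at -0.18 (-0.30 to -0.05). Without regions shared with other genes Slc2a2 was at -0.09. No member of 7 reached 1.5-fold, against 7.55% of the 23237 genes measured, and the median of the members was -0.11 against -0.04 over all genes. With 1 library a side these intervals do not hold the difference between animals.

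Each library's peaks were called separately, which entered these ratios. Pck1 had 3 peaks over 2725 bp in old replicate 2 and 2 peaks over 1879 bp in young; the extra peak, 3.3 kb past the start, held 19.1 CPM. Over regions with a peak in both libraries Pck1 had 135.9 CPM in old replicate 2 and 139.6 CPM in young, a log2 ratio of -0.04 (-0.10 to 0.02), so its higher level in old replicate 2 was lost. Slc2a2 had 8 peaks over 6856 bp in old replicate 2 and 11 over 9037 bp in young, and its ratio over regions in both was -0.19 (-0.25 to -0.13). Fbp1 had 5 peaks over 4429 bp in old replicate 2 and 7 over 6371 bp in young, and its ratio over regions in both was also -0.19 (-0.26 to -0.12). Slc5a1, with 12 peaks over 9371 bp in old replicate 2 and 9 over 7543 bp in young, had -0.53 (-0.63 to -0.42), and 1.5% of all genes had a lower ratio. G6pc kept 0.21 (0.12 to 0.30). No member reached 1.5-fold over regions in both, against 5.5% of 23105 genes.

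**Figure D3:**
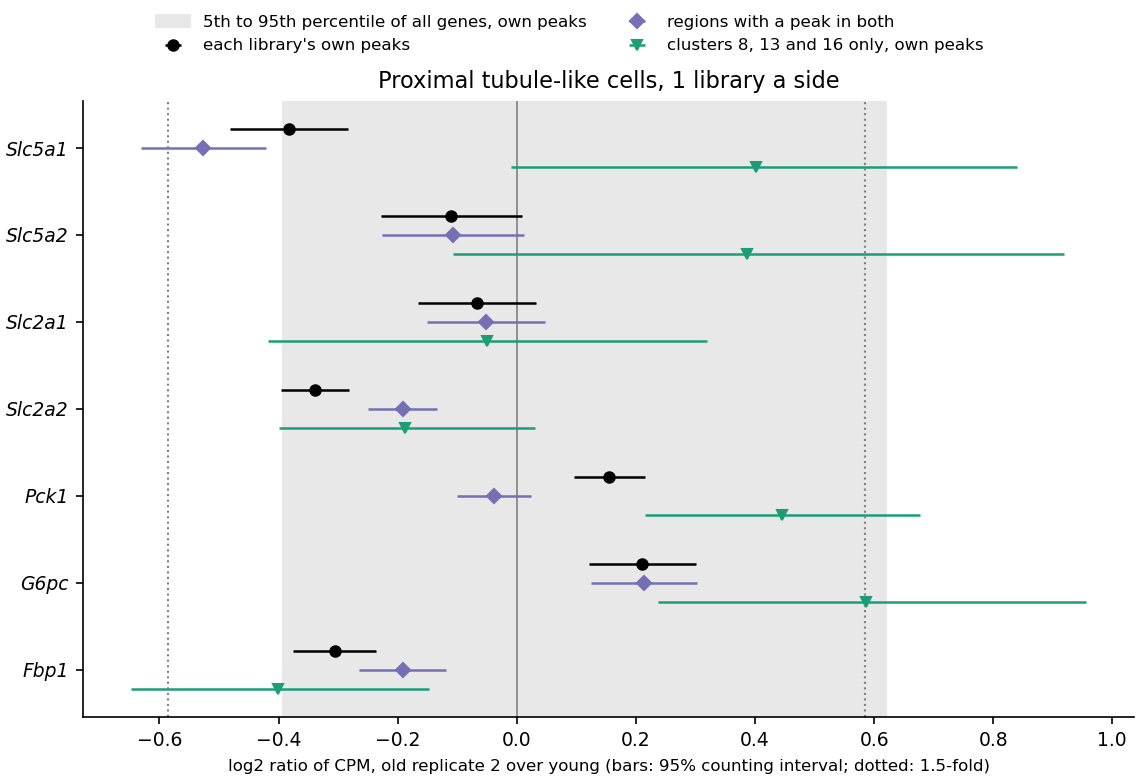
Log2 ratio of CPM, old replicate 2 over young, in proximal tubule-like cells (horizontal axis) for each gene (vertical axis), over own peaks, over regions with a peak in both libraries, and over own peaks in clusters 8, 13 and 16 alone, with 95% counting intervals; grey spans the 5th to 95th percentile of all genes and dotted lines mark 1.5-fold. Slc5a1 lies at -0.38 and -0.53 over all proximal tubule-like cells and at 0.40 in the 3 shared clusters.

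Proximal tubule-like cells of the 2 libraries mostly formed separate clusters, and this touches each ratio. Clusters 0, 7 and 8 held 40.4%, 25.9% and 17.6% of these cells in old replicate 2, and clusters 3, 5 and 6 held 35.0%, 29.2% and 28.4% of them in young. Clusters 8, 13 and 16 held at least 10 cells of every library. They held 547, 311 and 183 cells in old replicate 2 and 171, 15 and 51 in young. Their mix thus still differed between the 2 libraries, and its part in the ratios was not tested. In these clusters together Slc5a1 had 49.7 CPM in old replicate 2 and 37.7 CPM in young, a log2 ratio of 0.40 (-0.01 to 0.84). Slc5a2 was also above 0 there, at 0.39 (-0.11 to 0.92), and the intervals of both included 0. Fbp1 stayed lower in old replicate 2, at -0.40 (-0.65 to -0.15), while the interval of Slc2a2, at -0.19 (-0.40 to 0.03), included 0. G6pc was at 0.59 (0.24 to 0.96) and Pck1 at 0.45 (0.21 to 0.68) in these clusters over own peaks. Over regions with a peak in both libraries, an alternative chosen after seeing the data, G6pc was at 0.57 (0.22 to 0.94). The interval of Pck1, at 0.22 (-0.01 to 0.45), then included 0. In all proximal tubule-like cells, marker sets were summed over regions with a peak in both libraries. The late-segment marker set, 10 genes, summed to 363.0 CPM in old replicate 2 and 394.5 CPM in young, with no gene at 0. The early-segment set, 11 genes, summed to 1774 CPM in old replicate 2 and 1842 CPM in young, and an injury set of 10 genes to 285.3 CPM in old replicate 2 and 312.0 CPM in young, with 2 genes at 0 in each. The part of the segment mix in the ratios was not tested.

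Single regions showed where the differences lay. At the start of Slc5a1 (chr5:33103895-33104698) the level was 8.11 and 5.45 CPM in the old libraries and 10.3 CPM in young, a log2 ratio of old replicate 2 over young of -0.91 (-1.20 to -0.63). Both old libraries had a further peak beside it (chr5:33104714-33105260), with 5.40 and 2.59 CPM, where young had none. Over all regions within 2 kb of the start the ratio was -0.35 (-0.60 to -0.11). At the strongest region of the gene, 17.8 kb past the start (chr5:33121550-33122561), the level was 20.4 and 7.75 CPM in old and 16.6 CPM in young, a ratio of -1.10 (-1.34 to -0.87). Old replicate 1 lay above young there, so the old libraries stood on either side of the young one. At 38.9 kb the ratio was 0.03 (-0.28 to 0.34) and at 40.1 kb 0.28 (-0.02 to 0.57), so the regions of Slc5a1 did not share 1 ratio.

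In Slc2a2 the difference was largest 8.0 kb past the start (chr3:28705442-28706408), with 24.3 and 23.6 CPM in old and 36.5 CPM in young and a log2 ratio of old replicate 2 over young of -0.63 (-0.77 to -0.50). Both old libraries lay below young at this region. The Slc2a2 start, whose promoter is printed above, had 25.5 and 33.0 CPM in old and 33.2 CPM in young and a ratio of -0.01 (-0.14 to 0.11). The G6pc start had 41.4 and 43.7 CPM in old and 41.2 CPM in young, a ratio of 0.08 (-0.03 to 0.19), and the region 11.3 kb past the start, beyond the gene's end, had 17.1 and 23.9 CPM in old and 17.2 CPM in young, a ratio of 0.48 (0.32 to 0.63). The G6pc gain of old replicate 2 thus lay mostly in the downstream region.

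The Pck1 start was the strongest single region, with 133.9 and 92.1 CPM in old and 95.4 CPM in young, and old replicate 1 stood above both other libraries. Fbp1 had 42.3 and 40.7 CPM at its start in old and 49.5 CPM in young, and 31.5 and 27.5 CPM in old and 26.8 CPM in young at 4.7 kb. The 3 regions of Slc5a2 had log2 ratios of old replicate 2 over young of -0.35 (-0.55 to -0.15), -0.21 (-0.43 to 0.01) and 0.25 (0.04 to 0.45), in order along the chromosome (first region chr7:128265199-128265920). The small overall ratio of Slc5a2 was thus a sum of regions on either side of 0. Regions that overlap another gene's window cannot be given to 1 gene: Slc2a1 shares regions with Gm12867 and Gm52706, Slc2a2 with 1700112D23Rik and Fbp1 with Gm38679. Leaving such regions out took the log2 ratio of Slc2a2 to -0.09 (-0.18 to -0.01), that of Slc2a1 to 0.16 (-0.01 to 0.32) and that of Fbp1 to -0.21 (-0.30 to -0.13).

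**Figure D4:**
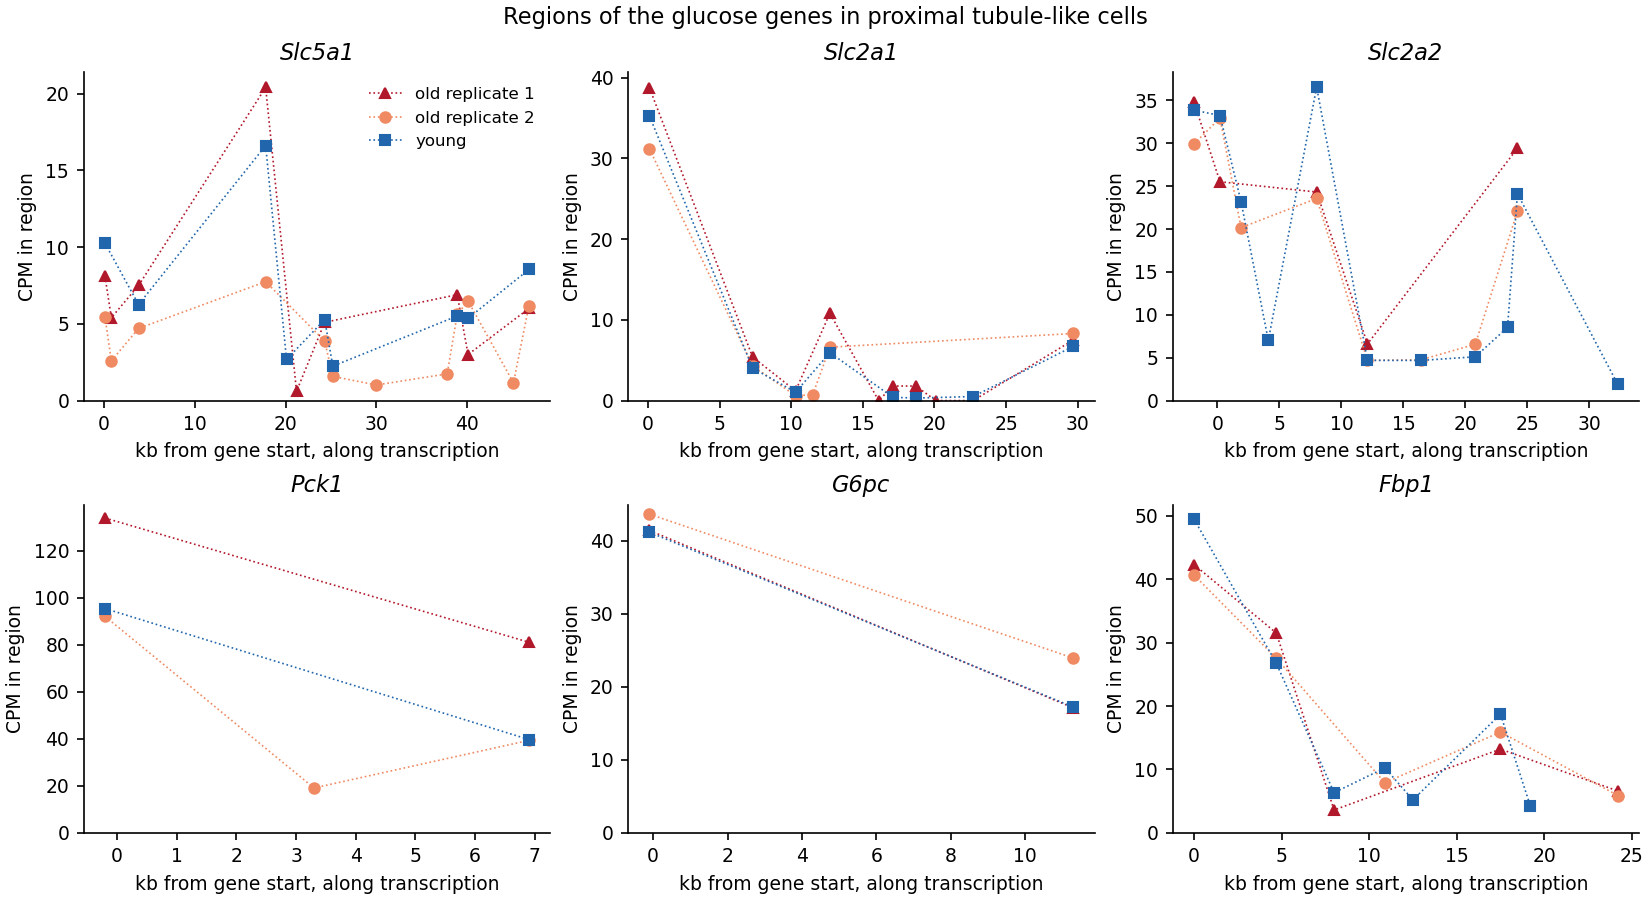
CPM in each region of 6 genes in proximal tubule-like cells (vertical axis) by distance in kb from the gene start (horizontal axis), with 1 point per library that has a peak there; dotted lines join neighbouring regions to guide the eye. The Slc5a1 region at 17.8 kb has 20.4 and 7.75 CPM in the old libraries and 16.6 CPM in young, and the Slc2a2 region at 8.0 kb has 24.3 and 23.6 CPM in old and 36.5 CPM in young.

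With both old libraries in the fit, no member passed the test of old against young proximal tubule-like cells. edgeR's quasi-likelihood test on regions with a peak in all 3 libraries called 112 of 25550 genes at an adjusted p under 0.05, 0.438% of them, and 0 of the 6 members tested; Slc5a2 has no such region. The log2 difference of old minus young was -0.37 for Slc5a1 (SE 0.23, adjusted p = 1), -0.25 for Slc2a2 (SE 0.21), -0.22 for Fbp1 (SE 0.21), 0.24 for Pck1 (SE 0.22), 0.07 for G6pc (SE 0.22) and 0.02 for Slc2a1 (SE 0.23), each with an adjusted p of 1 in edgeR's test. None of the 6 had an unadjusted p under 0.05, against 820 of all genes, and DESeq2 called 38 genes and no member. Without old replicate 1 the difference was -0.50 for Slc5a1, and without old replicate 2 it was -0.20. Without old replicate 1 it was -0.01 for Pck1 and -0.03 for Slc2a1, and without old replicate 2 it was -0.18 for G6pc, so the signs of Pck1, Slc2a1 and G6pc rest on 1 library. The fit rests on 1 residual degree of freedom and on 197 cells of old replicate 1. Differences of the size seen over own peaks in old replicate 2 are within 2 SE of 0 here, so the test does not show that these genes are alike in old and young. Among regions, 191 of 72316 were called, 0.264% of them, and none of a member; the lowest unadjusted p was that of the Slc2a2 region at 8.0 kb, with a log2 difference of -0.70 (SE 0.35, adjusted p = 1 in edgeR's test).

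In loop to collecting duct-like cells, 54 and 324 in the old libraries and 204 in young, Slc2a1 was the most open of the genes. It had 121.8 and 128.5 CPM in old and 146.2 CPM in young, and the edgeR difference of old minus young was -0.19 (SE 0.24, adjusted p = 0.9996). The test called 42 of 22855 genes, 0.184% of them, and no member of 6. Slc5a1 differed by 0.14 (SE 0.38) and Slc2a2 by -0.56 (SE 0.47), both within 2 SE of 0; without old replicate 1 that of Slc5a1 was -0.15. Single regions of Slc2a1 that were low in proximal tubule-like cells were open here: at 7.3 kb the loop to collecting duct had 20.5 and 15.9 CPM in old and 19.7 CPM in young, against 5.40 and 4.31 CPM in old and 4.03 CPM in young proximal tubule-like cells.

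Among proximal tubule-like clusters, Slc5a1 and Slc5a2 varied in opposite directions. The values that follow are CPM over regions with a peak in both old replicate 2 and young, in clusters of at least 50 cells of a library. In young cells Slc5a1 ran between 15.1 CPM in cluster 8 and 81.4 CPM in cluster 3, and Slc5a2 between 17.5 CPM in cluster 16 and 77.3 CPM in cluster 6. In old replicate 2 Slc5a1 ran between 28.2 CPM in cluster 8 and 60.1 CPM in cluster 13, and Slc5a2 between 11.2 CPM in cluster 16 and 56.2 CPM in cluster 8. Young cluster 3, with the highest Slc5a1, had 17.7 CPM of Slc5a2, and young cluster 6, with the highest Slc5a2, had 28.2 CPM of Slc5a1. Over the 8 clusters, with both libraries joined, Pearson's r between the genes was -0.72 on the log2 scale. The points share libraries and were formed from the same counts. The ratio of the late-segment to the early-segment marker sum was 0.254 in young cluster 3 and 0.165 in young cluster 6.

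Cluster 11 was the extreme of this pattern and stayed without a name. Proximal tubule was its best marker set, but the margin over the next set was too small. Its late-to-early ratio was 0.541 in old replicate 2 and 0.700 in young. Slc5a1 had 77.2 CPM in old replicate 2, 397 cells, and 90.4 CPM in young, 63 cells. Slc5a2 had 3.96 CPM in old replicate 2 and was listed at 0 in young. G6pc had 22.4 CPM in old replicate 2, where the lowest proximal tubule-like cluster had 66.2 CPM. In young it had 23.7 CPM, from 42 counts, close to the 24.3 CPM of young cluster 8, the lowest proximal tubule-like cluster there. These 2 young values were not tested against each other. Counting cluster 11 as proximal tubule moved the log2 ratio of old replicate 2 over young to -0.27 for Slc5a1 and to 0.10 (0.02 to 0.19) for G6pc.

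**Figure D5:**
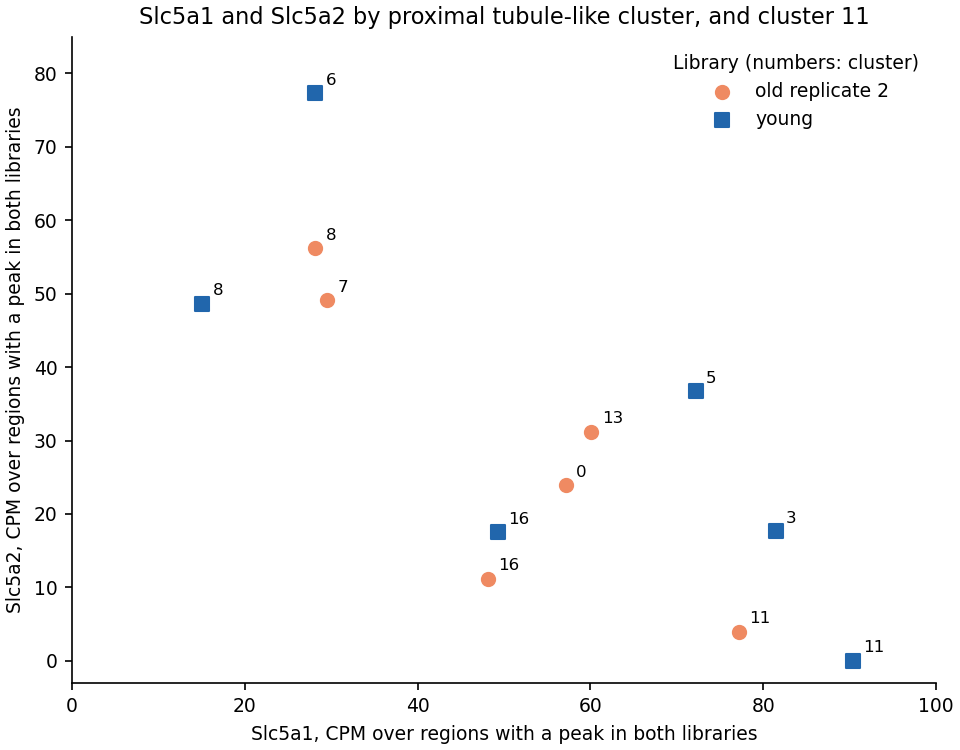
Slc5a2 (vertical axis) against Slc5a1 (horizontal axis), both in CPM over regions with a peak in both libraries, with 1 point per cluster and library of at least 50 cells and the cluster number beside it. Cluster 6 of the young library lies at 28.2 and 77.3 CPM of Slc5a1 and Slc5a2, and cluster 11 of the young library at 90.4 and 0 CPM.

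The highest cluster of the young library was 5.41 times the lowest for Slc5a1 and 4.41 times for Slc5a2, and at most 2.80 times, in G6pc, for the other genes. For Slc5a1, Slc2a1, Pck1 and G6pc the lowest young cluster was cluster 8. It held 863148 counts in these regions, so its low values rest on few counts. In old replicate 2 the highest cluster was 2.13 times the lowest for Slc5a1 and 5.03 times for Slc5a2. In the same library the highest was 1.48 times the lowest for G6pc, 1.56 times for Slc2a1, 1.58 times for Slc2a2, 1.70 times for Pck1 and 2.19 times for Fbp1. Over the 8 clusters Fbp1 followed Slc2a2 (r = 0.90) and Pck1 followed Slc5a1 (r = 0.84) and G6pc (r = 0.77), again as a description. Cluster 8, the largest shared by old replicate 2 and young, with 547 and 171 cells, gave log2 ratios of old replicate 2 over young of 1.54 for G6pc (0.60 to 2.50), 0.60 for Pck1 (0.09 to 1.12), -0.50 for Slc2a2 (-0.83 to -0.17) and -0.72 for Fbp1 (-1.11 to -0.31). Its cells had few counts, with a median of 8105 in old replicate 2 and 3791 in young, the lowest of any proximal tubule-like cluster of at least 50 cells in each library. The part of this depth in its ratios was not tested. Within it G6pc had 70.7 CPM in old replicate 2 and 24.3 CPM in young. In cluster 16, with 183 and 51 cells, the intervals of all 7 genes included 0, and G6pc was at 0.18 (-0.28 to 0.66). The G6pc ratios of clusters 8 and 16 were not compared by a test.

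In the same cells no gene of the 4 lists of other pathway genes passed edgeR's test with both old libraries, where the lowest adjusted p was 0.663, or in the loop to collecting duct. Of 16 other hexose carriers measured, 1 passed 1.5-fold between old replicate 2 and young: Slc2a3, a high-affinity glucose carrier of neurons and blood cells, had 29.1 CPM in old replicate 2 and 15.1 CPM in young, a log2 ratio of 0.94 (0.79 to 1.10). It had 8 peaks in old replicate 2 and 5 in young, and over regions in both the ratio was 0.40. The fructose carrier Slc2a5 was at -0.26 and the inositol carrier Slc5a11 at -0.25, and the list's median was -0.04. Of 20 other gluconeogenic and substrate-supply genes none passed 1.5-fold. Their median was -0.16, beside -0.04 over all genes. G6pc2, the pancreatic islet relative of G6pc, was at -0.35 and Mdh1, the cytosolic malate dehydrogenase, at -0.26.

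Of 22 glycolytic genes 1 passed 1.5-fold. Pfkp, the platelet-type phosphofructokinase, had 62.4 CPM in old replicate 2 and 36.3 CPM in young, a log2 ratio of 0.78 (0.68 to 0.88), and 0.79 over regions in both. Gapdh was at -0.35 and Pfkfb4, which sets the level of an activator of phosphofructokinase, at -0.35, and the list's median was -0.12. Of 22 regulators 1 passed: Foxa2, a forkhead factor that opens liver chromatin, had 15.4 CPM from 3 peaks in old replicate 2 and 5.09 CPM from 1 peak in young, a log2 ratio of 1.60 (1.36 to 1.84), and 0.53 over the region in both. Cebpb, a bZIP factor of the Pck1 promoter in liver, was at 0.57 and Pik3r1, a regulatory subunit of the insulin-signalling PI3-kinase, at -0.39, and the list's median was -0.07. Each list thus had 0 or 1 gene past 1.5-fold, beside 7.55% of all genes.

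Over 15 clusters of at least 50 cells, with old replicate 2 and young joined, the genes whose log2 levels followed each member most closely were ranked by Pearson's r. Pck1 was followed by Cmbl and Adra2b (0.98 each). G6pc was followed by Gm35993, Acmsd and Prodh2 (0.98 each), Fbp1 by Mogat2, Ces2h and Eci3 (0.99 each), and Slc2a2 by D130043K22Rik, Rdh18-ps and Rdh16 (0.99 each). Slc5a2 was followed by 1700014L14Rik (0.98), Gm20789 (0.97) and Glb1l3 (0.97). The values were lower for Slc5a1, with Mir3089, Gm11755 and Gm40397 at 0.90 each, and for Slc2a1, with L1cam and Mamstr at 0.91 each and Scd3 at 0.90. These correlations share libraries and clusters and describe likeness of pattern only.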

How the data were processed

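Per the labels and the submitters' processing notes, the authors processed 3 kidney mtscATAC-seq libraries with Cell Ranger ATAC 2.1.0 on mm10; other settings were not given in the sources used here. Deposited values were raw counts of cuts per peak and barcode, with peaks called in each library alone. Total counts were 96093221 and 64729297 in old replicates 1 and 2 and 110871506 in young. Between 89.5% and 94.3% of values were even, since each fragment adds both of its ends, so exact 95% intervals were computed on fragments (count over 2, rounded up) and cover counting error only. Overlapping peaks were merged into 250005 regions, of which 72317 had a peak in every library and 117298 in old replicate 2 and young.

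Barcodes under 1000 counts and scored doublets (248 and 133 in old, 135 in young) were removed. Latent semantic indexing (30 components) and Leiden clustering (resolution 1.0) gave 19 clusters (Python 3.11.15, scikit-learn 1.9.0, leidenalg 0.10.2). A cluster was named "-like" from marker sets with at least 3 raised markers and a margin of 0.25 (log2) over the next set; this scoring rule was revised after the clusters had been seen. Clusters are described as groups of the same cells they were formed from. Old and young sums were tested with edgeR 4.0.16 (quasi-likelihood test, TMM, Benjamini-Hochberg adjustment over all genes; R 4.3.3), with DESeq2 1.42.0 as an alternative. SE is the log2 difference over the square root of F. On simulated data for the proximal tubule-like comparison (25550 genes, 200 changed 4-fold) the test recovered 100% with 7 false calls. The simulated counts had 1 fixed spread and no change smaller than 4-fold. This recovery therefore does not tell how well differences as small as those of the members would be found. Old replicate 2 against young has 1 library a side and no test; genes with a mean of at least 5 CPM were kept.

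The members and lists were chosen with earlier results of these data known. All 7 members are named. From each list the text names genes called by edgeR and the 3 with the largest ratio of old replicate 2 over young, and for each member the 3 genes with the highest r of log2(CPM + 5) over clusters, among genes reaching 20 CPM. A gene that this rule names is not reported here.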

Additional observations from a re-analysis of the deposited data

How the results depend on the processing

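No member was called by edgeR or DESeq2 under any alternative with a test. The number of genes tested differed between settings and is given with each count. In the proximal tubule-like genes the 112 calls of 25550 became 38 of 25550 with DESeq2 and 58 of 15010 over gene starts. They were 1 of 32225 when a missing peak counted as 0 and 13 of 24193 in clusters 8, 13 and 16. In the loop to collecting duct the 42 calls of 22855 became 2 of 22855 with DESeq2 and 1 of 25010 when a missing peak counted as 0. For regions the 191 calls became 316 with RLE size factors and 89 with DESeq2, each of 72316. Between old replicate 2 and young 1754 of 23237 genes were past 1.5-fold. The count became 801 of 13515 over gene starts, 7092 of 32193 with no filter and 4558 of 23656 in the shared clusters. It was 4062 of 23448 in those with regions in both (an alternative chosen after seeing the data). With equal weight of clusters 8 and 16 it was 4850 of 23960.

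Of the ratios of old replicate 2 over young, Slc5a1 turned to 0.40 in the shared clusters, to 0.19 in those over regions in both and to 0.51 with equal weight. Some members passed 1.5-fold in such settings. With equal weight G6pc was at 0.71, Pck1 at 0.59 and Fbp1 at -0.71, where 4850 of 23960 genes were past 1.5-fold. In the shared clusters over own peaks G6pc was at 0.59, where 4558 of 23656 genes were. Pck1 turned to -0.04 over regions in both, to -0.02 over regions in all 3 libraries and to -0.05 at the gene start. Slc2a1, whose interval included 0, was at 0.16 without regions shared with other genes and at 0.09 with equal weight. Slc2a2 shrank to -0.09 without shared regions and to -0.12 over gene starts, and G6pc to 0.10 with cluster 11 counted in. In the edgeR fits Slc5a1 turned to 0.21 in the shared clusters, Slc2a1 to -0.10 over gene starts and G6pc to -0.17 with cluster 11 counted in (chosen after seeing the data), and in the loop to collecting duct Pck1 turned to -0.04 with DESeq2 and to 0.00 with no filter.

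Leaving out 1 old replicate at a time, the log2 difference of old minus young lay between -0.50 and -0.20 for Slc5a1, between -0.03 and 0.08 for Slc2a1, between -0.01 and 0.49 for Pck1 and between -0.18 and 0.24 for G6pc in proximal tubule-like cells, and between -0.15 and 0.48 for Slc5a1 and between -0.49 and 0.26 for Pck1 in the loop to collecting duct.

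No paired analysis was possible because young has 1 library, so the groups share fewer than 2 replicate numbers. Without old replicate 1 or 2 no residual degree of freedom is left, so these are values with no test. The cause of these shifts was not tested. Peaks called per library, 197 proximal tubule-like cells in old replicate 1 and clusters that hold mostly 1 library limit every difference.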
